A study of Rattus norvegicus with 12 samples.

Results

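The transcriptional coactivators YAP (Yap1) and TAZ (Wwtr1), the 4 TEAD factors that carry them to DNA (Tead1 to Tead4) and 4 of their established target genes (Ccn1, Ccn2, Ankrd1 and Amotl2) were followed across 12 RNA-Seq libraries of rat PAC1 cells. These 10 genes were chosen by name for their place in the pathway, with earlier results of these data known. They are 10 of the 33294 genes in the count table. YAP and TAZ do not bind DNA themselves. The Hippo kinase MST activates the kinase LATS, which phosphorylates YAP and TAZ and so holds them in the cytoplasm, whereas on stiff substrates, in spread cells with stress fibres or after serum stimulation they enter the nucleus and bind TEADs. In smooth muscle the pathway is known for linking the actin cytoskeleton and matrix to growth and to contractile gene expression. RNA-Seq reads neither the phosphorylation nor the location of these proteins, so every value below is an mRNA level.

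PAC1 is a line of rat pulmonary artery smooth muscle cells that can be kept in a more differentiated state (PAC1-D) by splitting 1:10 once a week, or in a more proliferative state (PAC1-P) by splitting 1:20 2 times a week. All groups were grown with 10% serum and transfected 2 times with siRNA. D1 is PAC1-D with control siRNA, P is PAC1-P with control siRNA, RBPMS KD1 is PAC1-D with siRNA against the splicing regulator Rbpms, and MBNL KD is PAC1-D with siRNAs against the splicing regulators Mbnl1 and Mbnl2. Each group has 3 libraries of poly(A) RNA. The titles of the MBNL KD libraries name MBNL1 alone, while their treatment label names MBNL1 and MBNL2. The state of the P cells and their splitting regime cannot be told apart, and all comparisons rest on 1 cell line.

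Total counts per library lay between 80842635, in MBNL KD replicate 3, and 90771289. That library stood apart from its group: its counts differed from those of each of the other MBNL KD libraries by a chi-square of 12.8 per gene, against 3.68 to 7.7 for every other pair of replicates. The counts were scaled by TMM factors to a library of the geometric mean size, and these scaled counts are the levels given below. They sum all isoforms of a gene and are not divided by its length, so levels of different genes are not compared. The siRNA targets were low in the libraries labelled for them: Rbpms stood at 25% of its D1 mean in RBPMS KD1, and Mbnl1 and Mbnl2 stood at 23.7% and 29.5% in MBNL KD. Rbpms stood at 6.30% in P. The summed level of 6 smooth muscle markers was between 776543 and 815798 in D1, 626307 and 635041 in MBNL KD, 387849 and 402420 in RBPMS KD1, and 11143 and 11916 in P. Acta2 and Tagln, with means of 447572 and 288424 in D1, make up most of this sum, which says little of the other markers. The smooth muscle label was thus borne out by the summed markers in the differentiated groups, and the sum was far lower in P.

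For each comparison the edgeR quasi-likelihood F test was run on the 6 libraries concerned, and p-values were adjusted by Benjamini and Hochberg over every gene in the test. Called, below, means an adjusted p under 0.05 together with a log2 fold change above 1 or below -1. SE stands for the standard error of a log2 fold change, and SD for the spread of 3 libraries. All 10 genes were well covered: their coefficients of variation within groups ran from 0.513% to 5.91% with a median of 2.11%. Differences of a few percent therefore passed the p threshold, and 77.9% of all genes tested between P and D1 passed it. In bulk RNA a smaller number of expressing cells and less RNA per cell cannot be told apart.

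**Figure D1:**
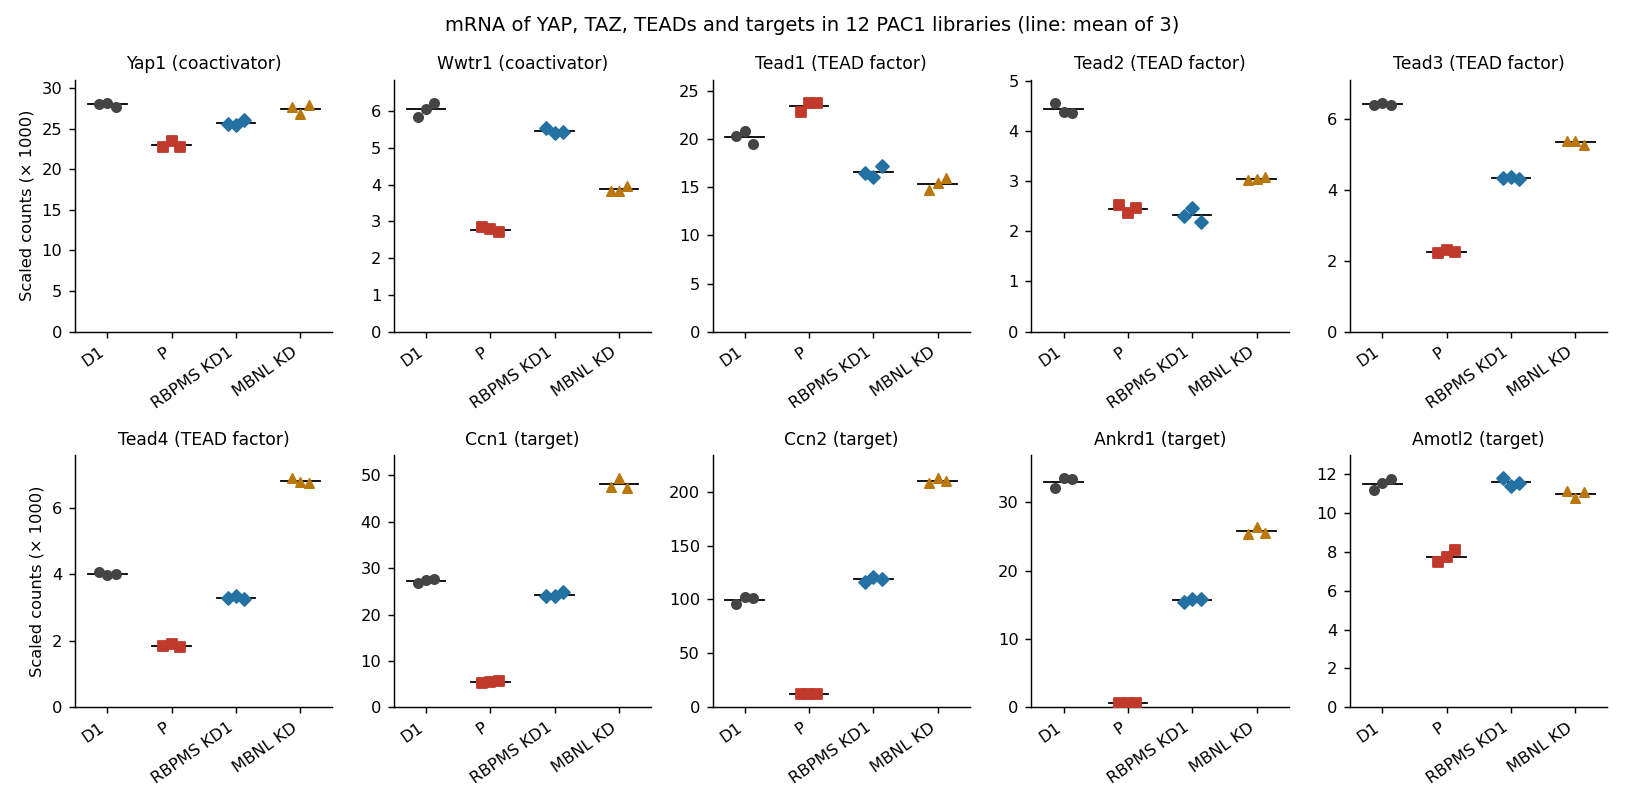
Scaled counts (vertical axis, from 0, a separate scale for each gene) of the 10 genes in the 12 libraries, by group (horizontal axis). Points are libraries and lines are means of 3; Ankrd1 falls to between 570 and 628 scaled counts in P, and Ccn2 reaches between 207768 and 212328 in MBNL KD.

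Of the coactivators, TAZ mRNA had the larger fold changes in P and MBNL KD. Wwtr1 had 5850, 6048 and 6229 scaled counts in the 3 D1 libraries and 2836, 2788 and 2698 in P. RBPMS KD1 gave 5534, 5393 and 5430, and MBNL KD gave 3823, 3836 and 3969. The 4 groups did not overlap, in the order D1, RBPMS KD1, MBNL KD and P. Wwtr1 was lower in P by a log2 fold change of -1.12 (SE 0.035, edgeR adjusted p = 1.57e-24), which passed both thresholds with TMM but stopped at -0.96 when libraries were scaled by total counts alone. In MBNL KD it was lower by -0.63 (SE 0.032, edgeR adjusted p = 7.26e-17) and in RBPMS KD1 by -0.15 (SE 0.032, edgeR adjusted p = 0.000221), neither reaching the fold threshold.

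Yap1 stayed within a narrow band. Its means were 27990 ± 258 scaled counts in D1 and 22980 ± 395 in P (SD, n = 3 each). In RBPMS KD1 the mean was 25710 ± 344, and in MBNL KD it was 27444 ± 587. P was lowest, with every library under every library of the other groups, while the ranges of D1 and MBNL KD overlapped. The log2 fold changes against D1 were -0.29 in P (SE 0.024, edgeR adjusted p = 1.5e-12) and -0.12 in RBPMS KD1 (SE 0.024, edgeR adjusted p = 9.41e-05). Both were smaller under other scalings: -0.12 in P under total counts and -0.14 under quantile normalization, and -0.06 in RBPMS KD1 under quantile normalization. For MBNL KD the value was -0.02 (SE 0.025, edgeR adjusted p = 0.462), and its sign turned under quantile normalization, to 0.08.

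The paralogs were also compared inside each library, where scaling between libraries drops out. The log2 ratio of Wwtr1 to Yap1 counts was lower than in D1 by 0.84 in P and by 0.61 in MBNL KD, with no overlap between groups. Both differences gave p = 0.1 in a two-sided exact permutation test, the smallest p that 3 against 3 libraries allow, and 0.115 after Benjamini-Hochberg adjustment over the 15 ratio comparisons made. In RBPMS KD1 the ratio differed by -0.03 and overlapped D1 (exact permutation p = 0.6, adjusted 0.643). A ratio of counts carries the gene lengths, so that it serves only to compare groups.

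The TEAD factors did not move as a block. Tead1 was the 1 member of the 10 that was higher in P than in D1, while Tead2, Tead3 and Tead4 were lower there. Tead1 had scaled counts of 20372, 20894 and 19520 in D1, 22821, 23827 and 23771 in P, 16546, 16063 and 17216 in RBPMS KD1. The MBNL KD libraries, at 14710, 15505 and 15998, were lowest. The groups did not overlap. The log2 fold changes were 0.21 in P (SE 0.027, edgeR adjusted p = 1.41e-08), -0.29 in RBPMS KD1 (SE 0.029, edgeR adjusted p = 1.42e-09) and -0.39 in MBNL KD (SE 0.029, edgeR adjusted p = 9.28e-13). None reached the fold threshold, and the value in P ranged from 0.18 to 0.38 over the alternatives.

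Tead3 showed the steepest fall of the TEADs in P. It had 6406, 6460 and 6400 scaled counts in D1 and 2210, 2314 and 2242 in P. Between these stood MBNL KD with 5366, 5368 and 5271 and RBPMS KD1 with 4331, 4366 and 4303. The 4 groups were again apart. Against D1 the log2 fold changes were -1.51 in P (SE 0.034, edgeR adjusted p = 1.59e-28), -0.57 in RBPMS KD1 (SE 0.031, edgeR adjusted p = 2.02e-15) and -0.26 in MBNL KD (SE 0.028, edgeR adjusted p = 1.55e-09). Only the first reached the fold threshold.

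Tead2 stood at overlapping levels in P and RBPMS KD1, below MBNL KD and D1. Its scaled counts ran from 4365 to 4568 in D1, from 2373 to 2519 in P, from 2195 to 2469 in RBPMS KD1 and from 3026 to 3086 in MBNL KD. The other neighbours in the order did not overlap. The log2 fold changes were -0.86 in P (SE 0.037, edgeR adjusted p = 1.98e-20), -0.93 in RBPMS KD1 (SE 0.041, edgeR adjusted p = 1.83e-17) and -0.53 in MBNL KD (SE 0.034, edgeR adjusted p = 2.21e-14), all short of the fold threshold. P and RBPMS KD1 were not compared by a test.

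Tead4 went in opposite directions. It had 4068, 3982 and 4016 scaled counts in D1, and fell to 1835, 1915 and 1823 in P. In MBNL KD it reached 6887, 6768 and 6734, while RBPMS KD1 gave 3297, 3337 and 3267. No 2 groups overlapped. The log2 fold change was -1.12 in P (SE 0.039, edgeR adjusted p = 3.76e-23), which stopped at -0.95 under scaling by total counts alone. It was -0.28 in RBPMS KD1 (SE 0.035, edgeR adjusted p = 4.54e-08) and 0.76 in MBNL KD (SE 0.029, edgeR adjusted p = 7.77e-20), both under the fold threshold.

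Within libraries, the TEAD mix thus shifted. Per Tead1 count, Tead4 gave 0.200, 0.191 and 0.206 counts in D1 and 0.468, 0.436 and 0.421 in MBNL KD, a ratio 2.22-fold higher. The same ratio was lower in P by 1.33 on the log2 scale and overlapped D1 in RBPMS KD1, with a difference of 0.0016 (exact permutation p = 1). The ratio of Tead3 to Tead1 differed from D1 by -1.72 on the log2 scale in P, by -0.28 in RBPMS KD1 and by 0.13 in MBNL KD. For Tead2 to Tead1 the differences were -1.07, -0.65 and -0.15. Apart from Tead4 to Tead1 in RBPMS KD1, each of these TEAD ratios was apart from D1 and gave the smallest possible exact permutation p of 0.1, adjusted to 0.115 over the 15 comparisons.

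**Figure D2:**
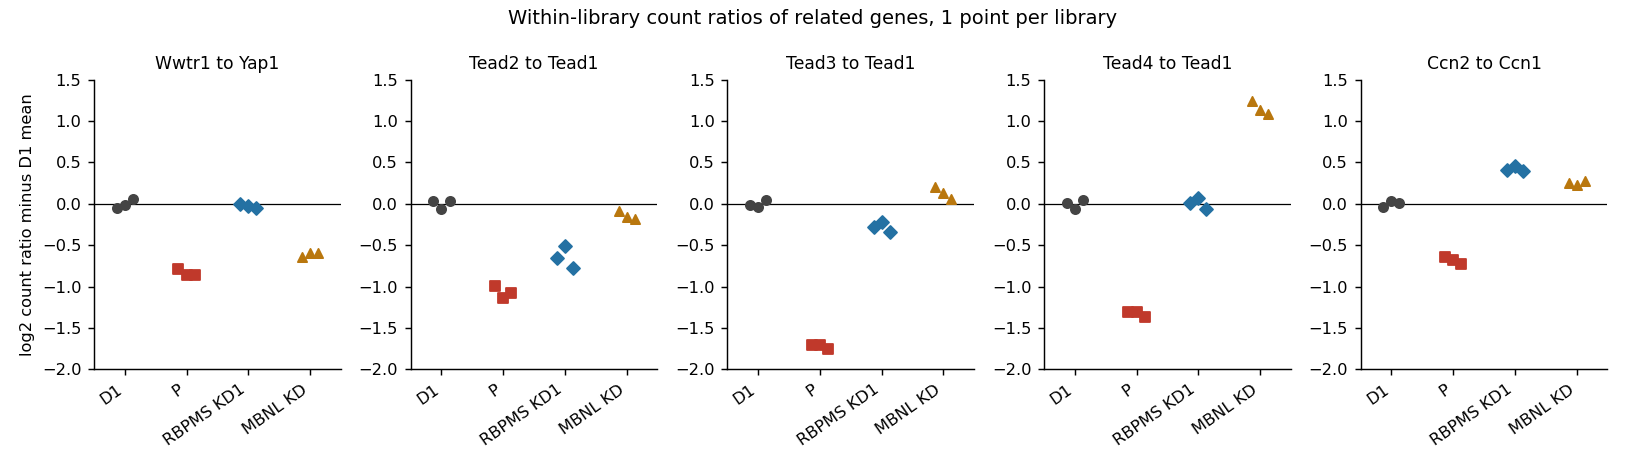
Log2 count ratios of related genes in each library, minus the D1 mean (vertical axis, log2), for the 4 groups (horizontal axis); points are libraries. The Tead4 to Tead1 ratio stands 1.15 above D1 in MBNL KD and 1.33 below it in P, while the Wwtr1 to Yap1 ratio is lower in both P and MBNL KD.

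The 4 target genes are read widely as reporters of YAP and TAZ with TEADs. Ccn1 and Ccn2 encode secreted matricellular proteins that bind integrins, Ankrd1 encodes a nuclear and sarcomeric ankyrin repeat protein of stressed muscle, and Amotl2 encodes an angiomotin that binds YAP and holds it back. Promoter sequence was read for those of the 10 genes that the RefSeq promoter table of build GRCr8 holds: Yap1, Wwtr1, Tead3, Ccn1, Ccn2 and Amotl2. The 250 bases before the start of transcription are shown for the 3 targets among them, because TEADs bind the motif GGAATG, and in each of the 3 these letters occur on one strand or the other. Ccn2 lies at chr1:22624615-22624864 on the minus strand, Ccn1 at chr2:237225690-237225939 on the minus strand and Amotl2 at chr8:112182376-112182625 on the plus strand. Each is written 5′ to 3′ along the gene, and capitals mark GGAATG or its reverse complement CATTCC.
Ccn2: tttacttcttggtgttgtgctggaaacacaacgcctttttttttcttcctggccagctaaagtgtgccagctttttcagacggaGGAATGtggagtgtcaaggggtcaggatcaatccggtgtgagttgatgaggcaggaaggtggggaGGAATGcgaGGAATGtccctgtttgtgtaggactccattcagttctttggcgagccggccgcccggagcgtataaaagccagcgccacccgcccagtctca
Ccn1: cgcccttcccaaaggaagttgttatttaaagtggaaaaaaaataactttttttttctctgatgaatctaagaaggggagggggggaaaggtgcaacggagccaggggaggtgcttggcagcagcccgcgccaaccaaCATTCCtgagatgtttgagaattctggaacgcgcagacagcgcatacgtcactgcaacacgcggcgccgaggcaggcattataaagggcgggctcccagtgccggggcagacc
Amotl2: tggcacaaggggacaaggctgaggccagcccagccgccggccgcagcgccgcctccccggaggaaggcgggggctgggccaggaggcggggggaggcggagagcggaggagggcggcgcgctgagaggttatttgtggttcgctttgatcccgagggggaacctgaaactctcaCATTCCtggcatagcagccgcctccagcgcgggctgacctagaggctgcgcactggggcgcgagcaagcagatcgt
The Ccn2 window held GGAATG 3 times, with first bases 166, 101 and 92 before the start. Ccn1 held CATTCC once, with its first base at 113, and Amotl2 held it once, at 76. Yap1 held GGAATG at 116, and the windows of Wwtr1 and Tead3 held neither. Over all 33469 promoter windows of this length in the table, 12.1% held the motif on either strand, and 27 windows (0.0807%) held it 3 times or more. The CArG box, the motif of SRF, and the AP-1 motif TGANTCA were found in none of these 6 windows, against 1.5% and 6.34% of all windows. These matches describe letters only, and binding was not measured.

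Ankrd1 changed most of the 10 genes in P. It had 32053, 33531 and 33492 scaled counts in D1 and 592, 628 and 570 in P, 1.81% of the D1 mean. RBPMS KD1 gave 15362, 15809 and 15784, and MBNL KD gave 25423, 26429 and 25481. D1 was highest, and all 4 groups were apart. Ankrd1 was 55.4-fold lower in P (log2 fold change -5.79, SE 0.037, edgeR adjusted p = 9.09e-44) and 2.11-fold lower in RBPMS KD1 (log2 fold change -1.08, SE 0.026, edgeR adjusted p = 3.58e-23). The call in RBPMS KD1 was lost under quantile normalization, where the log2 fold change was -0.99. In MBNL KD the log2 fold change was -0.35 (SE 0.026, edgeR adjusted p = 8.53e-13), short of the fold threshold.

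Ccn2 fell in P and rose in MBNL KD. Its scaled counts were 95607, 102341 and 101452 in D1, and 12429, 12571 and 12437 in P. RBPMS KD1 held 116622, 120607 and 119245, and MBNL KD held 207768, 212328 and 210155. P was lowest, D1 next, then RBPMS KD1, and MBNL KD was highest, with no overlap. The fall in P was 8.0-fold (log2 fold change -3.0, SE 0.027, edgeR adjusted p = 1.34e-39). The rise in MBNL KD was 2.11-fold (log2 fold change 1.08, SE 0.023, edgeR adjusted p = 5.5e-26). In RBPMS KD1 the log2 fold change was 0.25 (SE 0.027, edgeR adjusted p = 2.52e-09).

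Ccn1 had the same order at its ends. It had 26747, 27365 and 27619 scaled counts in D1, 5295, 5509 and 5613 in P, 24053, 23954 and 24811 in RBPMS KD1, and 47490, 49367 and 47337 in MBNL KD. RBPMS KD1 lay below D1 here, whereas for Ccn2 it lay above. Ccn1 was 4.98-fold lower in P (log2 fold change -2.32, SE 0.028, edgeR adjusted p = 1.97e-36). The log2 fold change was 0.83 in MBNL KD (SE 0.026, edgeR adjusted p = 6.14e-22) and -0.16 in RBPMS KD1 (SE 0.025, edgeR adjusted p = 1.89e-06), both short of the fold threshold. The RBPMS KD1 value was -0.11 under quantile normalization. The log2 ratio of Ccn2 to Ccn1 counts differed from D1 by -0.68 in P, 0.42 in RBPMS KD1 and 0.26 in MBNL KD, the last being 0.16 on the authors' normalised values. Each was apart from D1 (exact permutation p = 0.1, the smallest possible, adjusted 0.115).

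Amotl2 moved least of the targets. Its scaled counts ran from 11189 to 11758 in D1, 7477 to 8091 in P, 11421 to 11796 in RBPMS KD1 and 10761 to 11144 in MBNL KD. P was apart from the rest, RBPMS KD1 overlapped D1, and MBNL KD lay just below D1. The log2 fold change was -0.57 in P (SE 0.029, edgeR adjusted p = 3.37e-18). It was 0.01 in RBPMS KD1 (SE 0.027, edgeR adjusted p = 0.677) and -0.06 in MBNL KD (SE 0.024, edgeR adjusted p = 0.0412). The RBPMS KD1 value was 0.08 under quantile normalization (edgeR adjusted p = 0.00927). The MBNL KD value turned to 0.02 under quantile normalization, and its edgeR adjusted p was 0.16 without D1 replicate 3, 0.203 without MBNL KD replicate 2 and 0.0527 without MBNL KD replicate 3.

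**Figure D3:**
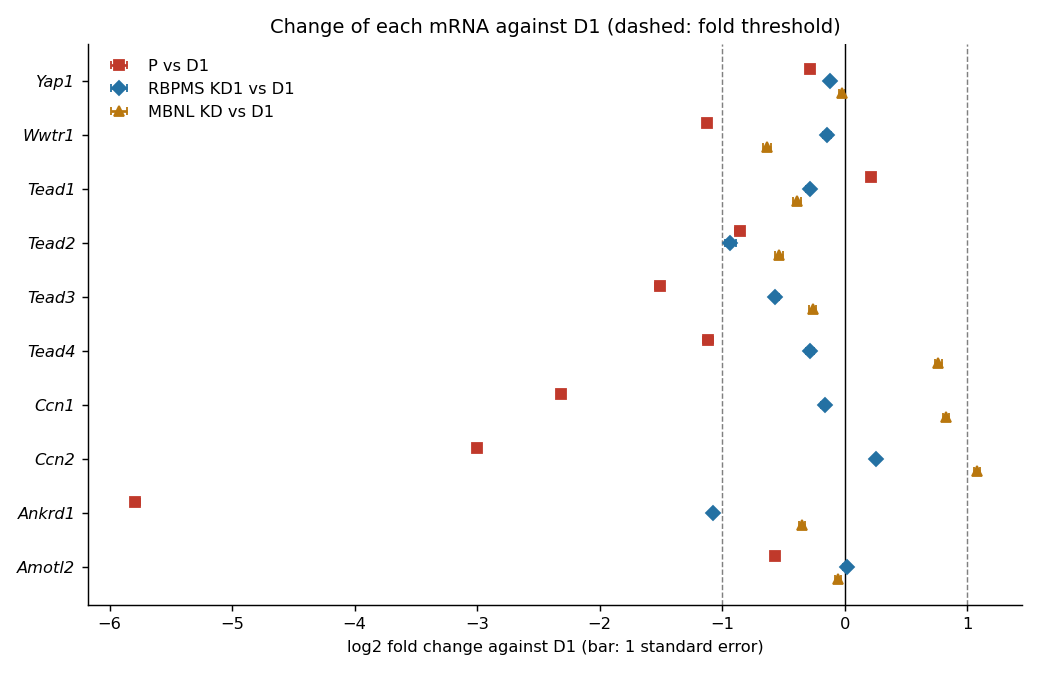
Log2 fold change against D1 (horizontal axis) of each of the 10 genes (vertical axis) in P, RBPMS KD1 and MBNL KD; bars are 1 standard error and dashed lines mark the fold threshold. In P, 6 genes lie beyond -1, in RBPMS KD1 only Ankrd1 does, at -1.08, and in MBNL KD only Ccn2 lies beyond 1, at 1.08.

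Counted together, 6 of the 10 genes were called in P, all lower (Wwtr1, Tead3, Tead4, Ccn1, Ccn2 and Ankrd1), where 27.6% of the 16814 genes tested were called, 16.4% higher and 11.2% lower. By p alone 9 were lower and 1 higher, against 37.6% and 40.4% of all genes tested. Their median log2 fold change was -1.12, beside 0.0204 over all genes. In all 10 the P libraries did not overlap D1, as in 79.1% of all genes.

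In RBPMS KD1, 1 of the 10 was called, Ankrd1, lower, where 4.68% of 15904 genes were called, 3.06% higher and 1.62% lower. By p alone 8 were lower and 1 higher, against 59.1% of all genes tested, 29.5% in each direction. The median log2 fold change was -0.22, beside 0.00431 over all genes. Amotl2 overlapped D1 and the other 9 did not, as in 63.4% of all genes.

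In MBNL KD, 1 of the 10 was called, Ccn2, higher, where 10.2% of 16053 genes were called, 6.10% higher and 4.14% lower. By p alone 3 were higher (Tead4, Ccn1 and Ccn2) and 6 lower, against 67.5% of all genes, 33.8% higher and 33.7% lower. The median log2 fold change was -0.16, beside 0.00991 over all genes. Yap1 overlapped D1 and the other 9 did not, as in 70.3% of all genes. Without MBNL KD replicate 3 the 1 call was again Ccn2, at 1.08, and the other log2 fold changes were 0.84 for Ccn1, 0.77 for Tead4, -0.65 for Wwtr1, -0.54 for Tead2, -0.42 for Tead1, -0.34 for Ankrd1, -0.25 for Tead3, -0.06 for Amotl2 and -0.03 for Yap1. These 3 comparisons share the D1 libraries, so their values are set side by side and not correlated.

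The knockdowns were set against each other directly, which does not use D1. Here 1 of the 10 genes was called, Tead4, higher in MBNL KD by a log2 fold change of 1.04 (SE 0.031, edgeR adjusted p = 1.07e-22), where 11.9% of 16111 genes were called, 5.88% higher and 6.03% lower. All 10 passed the p threshold, 7 of them higher in MBNL KD and 3 lower, against 69.5% of all genes, 35.1% higher and 34.5% lower. The 4 targets divided: Ccn1 was higher by 0.99 (SE 0.027, edgeR adjusted p = 1.29e-23), Ccn2 by 0.82 (SE 0.021, edgeR adjusted p = 3.29e-24) and Ankrd1 by 0.72 (SE 0.027, edgeR adjusted p = 2.32e-20). Amotl2 was lower by a log2 fold change of -0.08 (SE 0.025, edgeR adjusted p = 0.00891), which was lost under scaling by total counts, at -0.03. Of the regulators, Wwtr1 was lower in MBNL KD than in RBPMS KD1, by -0.49 (SE 0.033, edgeR adjusted p = 3e-14), and Tead1 by -0.11 (SE 0.030, edgeR adjusted p = 0.00241), the latter lost under scaling by total counts, at -0.07, and under limma. Yap1, Tead2 and Tead3 were higher by 0.09, 0.39 and 0.30. For all 10 genes the libraries of the knockdowns did not overlap, as in 71.8% of all genes. Under scaling by total counts Ccn1 was called too, at 1.03. Without MBNL KD replicate 3 the 1 call was again Tead4, at 1.04, and Ccn1, Ccn2 and Ankrd1 stood at 0.99, 0.81 and 0.72.

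Other Hippo pathway genes, from the kinases and scaffolds upstream of YAP and TAZ to their binders and the VGLL cofactors of TEADs, were taken from a list of 27, of which 24 were expressed enough to test in every comparison; Dchs1, Vgll1 and Vgll2 were not. In P, 4 of the 24 were called, all lower, where 27.6% of all genes tested were called and 11.2% were called lower: Wwc1, Vgll3, Wtip and Ajuba. Wwc1, the scaffold KIBRA that activates LATS, had a log2 fold change of -2.78 (SE 0.188, edgeR adjusted p = 4.55e-15) from a low level, 259 ± 7.61 scaled counts in D1 against 37.5 ± 11.8 in P (SD, n = 3 each). Vgll3, a cofactor of TEADs, was lower by -1.84 (SE 0.033, edgeR adjusted p = 2.41e-31). Wtip and Ajuba, LIM proteins that bind LATS, were lower by -1.25 and -1.14. Scaling by total counts, which shifted the median of all genes in P by 0.167, was not followed for these genes. By p alone 6 of the 24 were higher and 14 lower, against 40.4% and 37.6% of all genes, with a median of -0.21 on the log2 scale.

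None of the 11 tested genes of the kinase group was called in P by edgeR or DESeq2, where 27.6% of all genes were called by edgeR, although 7 had an unadjusted p under 0.05. The kinase genes Lats1 and Lats2 had log2 fold changes of -0.36 (SE 0.031, edgeR adjusted p = 1.36e-12) and -0.65 (SE 0.028, edgeR adjusted p = 1.11e-20), and Stk4, which encodes MST1, had 0.79 (SE 0.036, edgeR adjusted p = 1.08e-19). Stk3, which encodes MST2, gave 0.00 (SE 0.038, edgeR adjusted p = 0.955).

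In RBPMS KD1, where 4.68% of all genes were called, none of the 24 Hippo genes was called by edgeR or DESeq2, with 19 at an unadjusted p under 0.05. By adjusted p 7 were higher and 12 lower, against 29.5% of all genes in each direction, with a median of -0.06. In MBNL KD, where 10.2% of all genes were called, 1 was called lower, Mob1a, which encodes the adaptor that binds and activates LATS. It had between 5331 and 5538 scaled counts there against 11079 to 11261 in D1, a log2 fold change of -1.04 (SE 0.026, edgeR adjusted p = 1.61e-24). That value is close to the fold threshold, and Mob1a was not followed under scaling by total counts. Its paralog Mob1b stood at 0.26 (SE 0.034, edgeR adjusted p = 8.66e-08). The 6 tested binders of YAP, TAZ or LATS, which include the angiomotins Amot and Amotl1, were all lower by p in MBNL KD, where 33.7% of all genes were, with none called by edgeR or DESeq2 and a median of -0.53. Amot and Amotl1 had log2 fold changes of -0.84 and -0.46.

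Between the knockdowns, 3 of the 24 Hippo genes were called, about the 11.9% of all genes, and they are named after their values were seen. Frmd6, an upstream scaffold related to Merlin, was higher in MBNL KD than in RBPMS KD1 by 1.53 on the log2 scale (SE 0.031, edgeR adjusted p = 5.99e-27). Its scaled counts were 8626 ± 41.9 in D1, 12698 ± 108 in MBNL KD and 4412 ± 225 in RBPMS KD1 (SD, n = 3 each), so that the knockdowns lay on either side of D1. Mob1a and Limd1, another LATS-binding LIM protein, were lower in MBNL KD by -1.28 and -1.26.

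A further 18 published YAP and TAZ target genes moved in both directions in P. Of these 18, 2 were called higher and 5 lower, against 16.4% and 11.2% of all genes, 8 were higher and 10 lower by p, and the median was -0.28, also with genes absent from D1 set at their bound. F3, tissue factor, had 73.6 to 133 scaled counts in D1 and 11979 to 13280 in P, a log2 fold change of 6.81 (SE 0.070, edgeR adjusted p = 3.15e-38). Igfbp3 had no count in D1 and 52.0 ± 6.42 scaled counts in P (SD, n = 3), at least 17.3-fold higher than a limit of 3 counts per library. That limit covers counting error only. Tgfb2, a TGF-beta ligand, was lower by -2.26 (SE 0.030, edgeR adjusted p = 3.56e-35), and Crim1, Ccdc80, Arhgef17 and Gadd45a were lower by between -1.99 and -1.05.

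In RBPMS KD1, where 4.68% of all genes were called, 17 of these other targets were tested, none was called by edgeR or DESeq2, and 14 had an unadjusted p under 0.05. By adjusted p 6 were higher and 8 lower, against 29.5% of all genes in each direction. The receptor tyrosine kinase gene Axl was called lower in MBNL KD, by -1.03 (SE 0.025, edgeR adjusted p = 1.06e-24), and it was the 1 call among 17, beside 10.2% of all genes. By p 7 were higher and 8 lower, against 33.8% and 33.7% of all genes, with a median of -0.01. Axl fell short of the fold threshold in RBPMS KD1, at -0.79, and was higher in P, at 0.46 (SE 0.024, edgeR adjusted p = 4.8e-18). Between the knockdowns 1 of 17 was called, Gadd45a, higher in MBNL KD by 1.06, where 5.88% of all genes were called higher. Of the 18 genes 12 had a promoter entry, and 2 of the 12, Ptpn14 and Nuak2, held GGAATG or CATTCC, beside 12.1% of all promoter windows. Only 250 bases were read per gene, so sites farther away were not seen. Lats2 and Ptpn14 stand in both the Hippo list and this one.

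**Figure D4:**
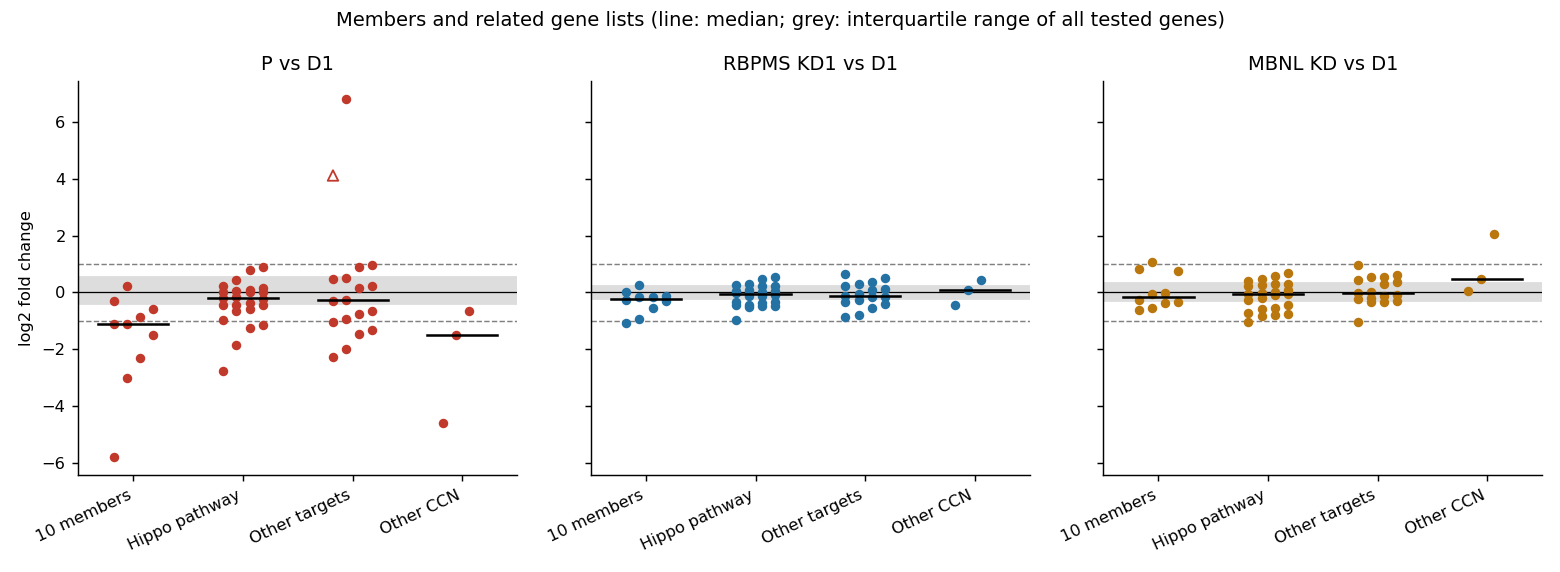
Log2 fold change (vertical axis) of the 10 genes, the Hippo list, the other published targets and the other CCN genes (horizontal axis) in each comparison with D1. Points are genes, lines are medians and the grey band is the interquartile range of all tested genes; in P the 10 genes have a median of -1.12 and the other targets one of -0.28, and the open triangle is Igfbp3 at its lower bound.

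Of the rest of the CCN family, 2 of the 3 genes tested were called lower in P, beside 11.2% of all genes. Ccn3 was lower by -4.61 (SE 0.033, edgeR adjusted p = 1.2e-42), from 91738 ± 2472 scaled counts in D1 to 3760 ± 194 (SD, n = 3 each), and Ccn5 by -1.51 (SE 0.027, edgeR adjusted p = 2.5e-31). Ccn4 was lower by -0.65, and Ccn6 was too low to test. Ccn4, known as WISP1, was the 1 of 3 called in MBNL KD, where 10.2% of all genes were called, with 17953 ± 56.2 scaled counts against 4383 ± 174 in D1 (log2 fold change 2.04, SE 0.026, edgeR adjusted p = 4.26e-31). Between the knockdowns it was higher in MBNL KD by 2.47. In RBPMS KD1, where 4.68% of all genes were called and 59.1% passed p, none of the 3 was called by edgeR or DESeq2, all 3 had an unadjusted p under 0.05, and they ranged from -0.43 for Ccn4 to 0.45 for Ccn5.

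Several other gene groups moved in the same libraries, and their part in the values above was not tested. All 6 smooth muscle markers were called lower in P, beside 11.2% of all genes, with a median of -5.47. In RBPMS KD1 3 were called lower, beside 1.62% of all genes, with a median of -1.04. In MBNL KD, where 4.14% of all genes were called lower and 6.10% higher, none of the 6 was called by edgeR or DESeq2, though all had an unadjusted p under 0.05: 2 were higher by adjusted p, Myh11 at 0.54 and Cnn1 at 0.12, and 4 lower, with a median of -0.32. Of 6 immediate early genes, which answer serum as Ccn1 and Ccn2 do, Junb and Ier2 were called higher in P, by 1.17 and 1.14, and Fos lower, by -1.33, where 27.6% of all genes were called. None was called in RBPMS KD1 or MBNL KD by edgeR or DESeq2, where 4.68% and 10.2% of all genes were called by edgeR, with 3 and 5 at an unadjusted p under 0.05.

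Among 8 proliferation genes 6 were higher in P by p, against 40.4% of all genes, and 6 had an unadjusted p under 0.05. None was called there by edgeR or DESeq2, where 27.6% of all genes were called by edgeR. In RBPMS KD1 7 of the 8 were lower by p, against 29.5%, with 7 at an unadjusted p under 0.05. None was called there by either tool, where 4.68% of all genes were called by edgeR. All 8 were lower by p in MBNL KD, against 33.7%. Ccnb1 was the 1 call of the 8, at -1.02, where 10.2% of all genes were called. Some markers of other cell types also passed the call, from low levels. Over all genes, 16.4% were called higher and 11.2% lower in P. The shares were 3.06% and 1.62% in RBPMS KD1, and 6.10% and 4.14% in MBNL KD. The summed level of 5 endothelial markers was 66 to 73 in D1, 481 to 599 in P, 162 to 164 in RBPMS KD1 and 83 to 125 in MBNL KD, with Cdh5 at 0 in every group but P, where its mean was 122. All 3 endothelial markers tested in P were called higher: Tek by 3.71, Vwf by 1.3, and Cdh5, at least 40.5-fold above a limit of 3 counts. Tek and Vwf were also called higher in RBPMS KD1, by 1.32 and 1.22, as the 2 tested there. Leukocyte markers summed to between 75 and 132 in every library, with Ptprc at 0 in D1 and Csf1r called higher in MBNL KD, by 1.3, and epithelial markers to at most 23. Cardiac markers summed to 422 to 481 in D1, 741 to 846 in P, 298 to 325 in RBPMS KD1 and 1086 to 1173 in MBNL KD, with Myh6 at 0 in D1. Tnnt2 and Ryr2 were called higher in MBNL KD, by 1.60 and 1.51, Tnnt2 lower in RBPMS KD1, by -1.75, and in P Tnni3 higher, by 3.02, and Ryr2 lower, by -2.47. Skeletal muscle markers summed to at most 114, with Myod1 at 0 in D1 and a mean of 59.0 in MBNL KD. Myod1 was called higher in MBNL KD, at least 19.7-fold above a limit of 3 counts. Ckm was called lower in RBPMS KD1 and MBNL KD, by -1.86 and -1.53.

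Genes with the most similar pattern were sought for the 6 members whose group means spanned more than 1 on the log2 scale. Likeness was the root mean square difference of log2 levels, each relative to the gene's D1 mean, over 12 libraries and 12645 genes. Nearest to Wwtr1 were Rusc2 (0.040), Dnajc10 (0.047) and Sh3rf1 (0.060). For Tead3 they were Dpysl3 (0.068), Sort1 (0.082) and Simc1 (0.094), and for Tead4 Ddah1 (0.097), Prkaa2 (0.103) and LOC108348102 (0.116). Ccn1 had Timp3 (0.109), Pcdhga2 (0.135), whose gene shares exons with its neighbours so that its counts are uncertain, and Speg (0.151). Nearest to Ccn2 were Svep1 (0.154), Lsmem2 (0.169) and LOC102553018 (0.187). The distance is not scaled to the size of a gene's changes and tends to be larger for members with wider spans. Distances of different members are therefore not compared. Ankrd1 had Tagln (0.153), Cd93 (0.216) and Fblim1 (0.289). Tagln, a smooth muscle marker, differed from D1 by -5.71 in P, -0.82 in RBPMS KD1 and -0.45 in MBNL KD on this scale, the mean log2 level, beside the fitted -5.79, -1.08 and -0.35 of Ankrd1.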

How the data were processed

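Poly(A) RNA of 12 PAC1 libraries was sequenced. The authors subsampled reads with seqtk, aligned them to mRatBN7.2 with STAR 2.7.11b and used featureCounts with the RefSeq annotation to count them per gene. These deposited counts, not normalized, were tested. The paper names an NEBNext Ultra II RNA kit without saying whether it keeps strand. The strand setting and the counting of mates are not given in the sources used here. The total counts of every library exceed the read depth per sample that the paper states after subsampling. The authors' deposited normalised table holds signal values from noisyR and quantile normalization, for 19812 genes, and was used only for alternatives. Per the labels, 90 pmol of siRNA and 200000 cells per well were used, with a second transfection after 24 h and harvest 48 h later. The study's methods give other times and cell numbers.

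Each comparison of 3 with 3 libraries used edgeR 4.0.16 in R 4.3.3 (filterByExpr, TMM, quasi-likelihood F test), with Benjamini-Hochberg adjustment over all genes tested and thresholds of 0.05 and a log2 fold change of 1, as in the study's methods. SEs are |log2 fold change| over the square root of F. Alternatives used DESeq2 1.42.0, limma 3.58.1, other scalings, no filter on low counts, all 12 libraries in 1 fit, a replicate block, halved counts and each library left out in turn. Ratios of counts used exact permutation tests. Pattern likeness used log2 of scaled counts plus 0.5, for genes with a mean of at least 100 scaled counts. The scripts were tested on simulated data.

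The 10 genes and all lists were chosen with earlier results of these data known. Named genes are the members, the siRNA targets, up to 3 called genes per list and comparison with the largest change, and the 3 nearest patterns per member; other named genes were chosen after their values were seen. The methods state biological replicates, at least 3 per condition, for the knockdowns, and the labels number the libraries without naming cultures. Same-numbered libraries did not deviate together, so no pairing was used. Promoters came from RefSeq on GRCr8, another build than that of the counts. The CArG box was CC, 6 bases of A or T, and GG, and all motifs were sought on both strands.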

Additional observations from a re-analysis of the deposited data

How the results depend on the processing

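Over the 10 genes, the 4 comparisons and the alternatives, 591 log2 fold changes stayed on the same side of the call, 4 turned with an adjusted p under 0.05 on one side, 1 became a call and 4 lost a call. The number of the 10 genes called was the same in 56 of 60 refits. In P it went from 6 to 4 under total counts, where Wwtr1 and Tead4 stood at -0.96 and -0.95. In RBPMS KD1 it went from 1 to 0 under quantile normalization and under limma on the authors' normalised values, where Ankrd1 stood at -0.99 and -0.98. Between the knockdowns it went from 1 to 2 under total counts, which added Ccn1. Under total counts the median of all genes shifted by 0.167 in P and by 0.054 in MBNL KD. Genes outside the 10 were not followed over the scalings. Calls near the fold threshold may therefore depend on the scaling, as for Ajuba and Gadd45a in P and Mob1a, Axl and Ccnb1 in MBNL KD. DESeq2 called these genes too. In MBNL KD, Yap1 turned to 0.0814 under quantile normalization and 0.0811 under limma, and Amotl2 to 0.0247 under both; Yap1 also turned under total counts, to 0.03, and Amotl2 in RBPMS KD1 without D1 replicate 1, to -0.0070. The p of Amotl2 in MBNL KD was also lost under total counts, DESeq2 and the fit of all 12 libraries, and in RBPMS KD1 Amotl2 passed p under quantile normalization and limma. The p of Tead1 between the knockdowns was lost under total counts and limma. On the authors' normalised values, the log2 ratios in P differed from those in D1 by -0.94 for Wwtr1 to Yap1 and -1.14, -1.79 and -1.42 for Tead2, Tead3 and Tead4 to Tead1, and the Ccn2 to Ccn1 log2 ratio differed from D1 by 0.48 in RBPMS KD1 and by 0.16 in MBNL KD. The cause was not tested, except that quantile normalization and added constants change ratios by construction. Leaving out any library changed no number of the 10 genes called.

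When replicate numbers entered the fit as a block, the 10 genes gave 6 calls in P, 1 in RBPMS KD1, 1 in MBNL KD and 1 between the knockdowns, as without it. Over all genes the block gave 4593, 730, 1634 and 1915 calls, beside 4641, 745, 1643 and 1920. Deviations of same-numbered libraries correlated at -0.0725 to 0.0751 over the comparisons, so they shared little. This cannot show whether the libraries were prepared as matched sets, which the sources do not describe. The share of calls that were higher was 59.4% in P and 45.7% under quantile normalization, 65.4% and 53.8% in RBPMS KD1, and 59.6% and 50.9% in MBNL KD. Limma on the normalised values called 3139, 209 and 784 genes in the 3 comparisons with D1. Counting depth did not limit the 10 genes, whose lowest library held 570 scaled counts.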
